A study of Mus musculus with 8 samples.

Results

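A set of 10 genes of the smooth muscle type contractile apparatus was followed in cultured fibroblastic reticular cells (FRC), the stromal fibroblasts of lymph nodes. The 10 genes, Acta2, Tagln, Cnn1, Myl9, Tpm1, Tpm2, Actg2, Cald1, Lmod1 and Des, were chosen by symbol from a count table of 55367 genes. All 10 passed the filter of at least 10 counts in at least 3 libraries, which left 12137 genes for testing. Poly(A) RNA came from 1 FRC line, grown from lymph nodes of p53ER/ER C57BL/6 mice, so every condition carried that allele and no condition holds cells of another line. The line received RPMI with water (vehicle), RPMI with 15 mM lactic acid (LA), medium conditioned by FRCs (CCM) or medium conditioned by the melanoma line B16.F10 (TCM), both RPMI. All media held 2% FBS, the medium was renewed once, and cells were harvested after 4 days. Each condition had 2 libraries, 8 in all. Nothing in the sources says that the libraries of a condition came from different animals, so P values measure the spread between cultures of 1 line. For each gene that spread was 1 estimate shared by all conditions, not that of the conditions compared.

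In contractile cells, actin filaments slide along bundles of myosin II, and myosin is switched on by phosphorylation of its regulatory light chain. Smooth muscle α-actin, encoded by Acta2, is the defining actin of a myofibroblast, the contractile state of a fibroblast in wounds and tumors. Tropomyosins, caldesmon and calponin lie along the filament and limit access of myosin, transgelin bundles actin, leiomodin starts new filaments and desmin belongs to the intermediate filaments. Many of these genes carry CArG boxes, short elements bound by serum response factor (SRF) with its partners of the myocardin family. In lymph nodes, contraction of the FRC network sets the tension of the tissue and FRCs relax when the node swells.

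The sequences that matter most for reading these counts are those of Acta2 and Actg2, since the actins are near copies of each other and moved apart here. The line pair below gives 60 coding bases of each gene (GRCm38, minus strand of chromosomes 19 and 6), from coding base 31 of Acta2 and coding base 28 of Actg2, with the bases of Actg2 that differ from Acta2 in capitals.
Acta2: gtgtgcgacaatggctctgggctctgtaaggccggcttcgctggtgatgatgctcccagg
Actg2: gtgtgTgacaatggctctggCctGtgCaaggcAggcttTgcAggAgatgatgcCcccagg
In this stretch 9 of 60 bases differed. Over the 1101 coding bases that could be set side by side from the last coding base backward, 172 differed, an identity of 84.4%. No window of 50 bases of the Actg2 transcript occurred in a transcript of another gene (0 of 1284). For Acta2, 7 of 1986 such windows (0.352%) were shared, with Actg1 and 2 other entries of the annotation, and for the other 8 genes none was. A read of that length could therefore be assigned to Actg2 or Acta2 at nearly every position.

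The stretch of 250 bases before the transcription start was available from RefSeq (GRCm38.p6) for 8 of the 10 genes, all but Tagln and Actg2. It is printed for the 2 genes in which the CArG box, searched by its name's consensus, was found, either exactly or with 1 G or C among the 6 A or T positions of its core. The consensus reads the same on both strands, so 1 search covered both. Capitals mark the matches.
Acta2, chr19:34255374-34255623, minus strand: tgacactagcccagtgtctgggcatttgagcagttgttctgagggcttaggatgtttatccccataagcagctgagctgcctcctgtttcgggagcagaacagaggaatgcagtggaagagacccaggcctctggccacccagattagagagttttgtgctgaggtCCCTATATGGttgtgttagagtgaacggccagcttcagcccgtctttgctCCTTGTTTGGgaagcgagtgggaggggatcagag
Myl9, chr2:156775214-156775463, plus strand: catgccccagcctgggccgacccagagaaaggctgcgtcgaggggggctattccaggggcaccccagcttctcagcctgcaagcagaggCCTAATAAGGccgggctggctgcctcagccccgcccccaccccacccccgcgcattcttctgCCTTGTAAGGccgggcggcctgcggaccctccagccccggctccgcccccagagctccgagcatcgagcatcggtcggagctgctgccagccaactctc
Myl9 held an exact match 161 bases before the start and a match with 1 exchange at 99 bases. Acta2 held matches with 1 exchange at 84 and 34 bases. Among 32851 such windows of all genes, 1.47% held an exact match and 8.59% an exact match or one with 1 exchange. The other 6 genes had no match in these letters, which says nothing of elements farther away.

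Counted reads per library ranged from 8232889 to 14107964, and 3 counts, taken as the floor, equalled 0.211 to 0.354 CPM, the count scaled to a common library size. Reads carried no molecular identifiers, and these floors account for counting error alone. CPM values below use library sizes scaled by the trimmed mean of M values (TMM). The 2 TCM libraries differed from each other more than those of other conditions, with a chi-square per degree of freedom over genes of 19.8 against 3.28 to 7.32. Because the spread of a gene was shared by all conditions, standard errors, P values and intervals below can understate the spread with TCM. They can likewise overstate it in comparisons without TCM. Of 11 FRC markers, Pdpn, Vcam1, Pdgfrb, Pdgfra and Ltbr were expressed, and the 11 together summed to 831 to 980 CPM in all libraries. The other markers were low or absent. Thy1 had 1 to 16 counts per library, Icam1 1 to 8 and Il7 5 to 26. Cxcl13 had 43 counts in CCM replicate 1 and 0 in every other library. Ccl21a, a chemokine of FRCs in tissue, was at 0 and Ccl19 had at most 1 count. Of 7 leukocyte markers 6 were at 0 everywhere, Lyz2 being the exception, and of 9 markers of skeletal and heart muscle 8 stayed at or under the floor, Tnnt2 being the exception. The 7 endothelial markers summed to 2.63 to 6.47 CPM, with Prox1 at 0, and the 7 melanocyte and melanoma markers to 1.81 to 3.66 CPM, with Tyr at 0. Of these, Tyrp1 (6 and 3 counts) and Dct (1 and 1 count) were seen in the TCM libraries and had 0 counts in the 6 others. The 8 mural cell markers summed to 186 to 264 CPM, most of it Notch3, while Higd1b was at 0 and Myh11, the heavy chain of smooth muscle myosin, lay between 0.827 and 2.90 CPM. These are bulk libraries, in which fewer cells with a transcript and less of it per cell cannot be told apart.

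The line held the smooth muscle α-actin transcript at a very high level. Per kilobase of merged exons, Acta2 averaged 2471 CPM over the 8 libraries and ranked second of 11970 genes with a length. The next members were Tagln at 239, Tpm1 at 218, Cald1 at 154, Tpm2 at 96.6 and Myl9 at 92.6 CPM per kilobase, ranks 147 to 440. The other 4 were much lower, Cnn1 at 7.81, Actg2 at 5.52, Lmod1 at 2.7 and Des at 0.320 CPM per kilobase. The 10 genes thus fell into 6 abundant ones and 4 minor ones, and Des was close to the floor with 5 to 23 counts per library. Tagln, Cald1, Lmod1 and Des overlap another gene on the opposite strand in the annotation used here. Whether the counting used strand is not given in the sources used here, so for these 4 genes a share of reads from the partner cannot be told apart.

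**Figure D1:**
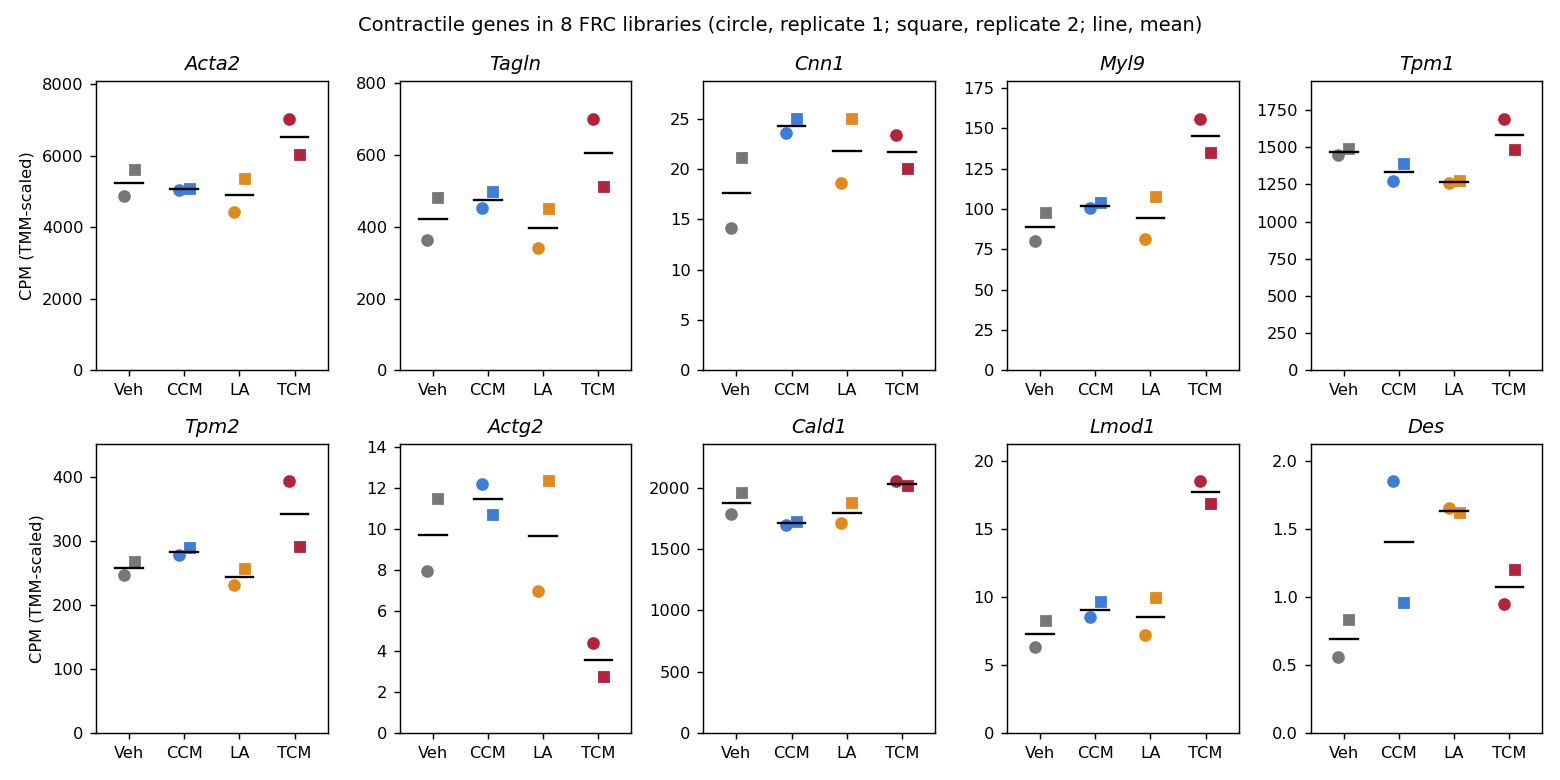
CPM (TMM-scaled, linear axis from 0) of the 10 contractile genes in each library, by condition (Veh, vehicle). Circles are replicate 1, squares replicate 2 and lines the mean of 2. Lmod1, Myl9, Acta2, Tagln, Tpm2 and Cald1 lie higher in both TCM libraries than in all 6 others, and Actg2 lies lower. Of these, Lmod1, Myl9 and Actg2 were called for TCM over CCM.

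TCM was compared with CCM to ask what melanoma-conditioned medium does beyond conditioning by FRCs themselves. Of the 10 contractile genes 3 were called, against 19.1% of all genes tested. Lmod1 and Myl9 rose and Actg2 fell, while the abundant actin, transgelin, tropomyosin and caldesmon transcripts had higher means that did not pass the test. A gene was called at a Benjamini-Hochberg adjusted P value under 0.05 in edgeR's quasi-likelihood test and a log2 fold change (log2 FC) beyond 0.39. The median log2 FC of the 10 was 0.26, with 7 above 0 and 3 below, and the median of all genes was 0.00 under TMM scaling. With library totals and no TMM factors all genes shifted by a median of −0.14 in this comparison and the share of calls that were higher went from 46.3% to 24.2%, so the smaller positive values here depend on scaling. The median of the 10 was then 0.12. Tnnt2, the heart muscle marker named above, measured 9.77 to 12.6 CPM with CCM and 18.2 to 21.6 CPM with TCM (log2 FC 0.84, edgeR adjusted P = 0.0037), and of the FRC markers Pdpn rose (0.44) and Pdgfrb fell (−0.47). Tek, the 1 endothelial marker that passed the filter, fell too, from 3.12 and 2.67 CPM with CCM to 0.947 and 0.654 CPM with TCM (−1.84, edgeR adjusted P = 0.0283), and also against LA (−2.11, adjusted P = 0.0154). Their part in the values of the 10 was not tested.

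Actg2 encodes γ-actin of enteric smooth muscle and is a minor actin in this line. It measured 4.42 and 2.73 CPM with TCM (42 and 25 counts). With CCM it measured 12.2 and 10.7 CPM, with vehicle 7.92 and 11.5 CPM and with LA 6.97 and 12.3 CPM. Both TCM libraries lay below all 6 others. Against CCM it fell 3.19-fold, a log2 FC of −1.68 ± 0.32 (SE; edgeR adjusted P = 0.0038). This call held in all 18 alternative settings and subsets of libraries, with log2 FC values from −2.07 to −1.37, the last without TCM replicate 2.

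Acta2 measured 7030 and 6030 CPM with TCM. With CCM it measured 5051 and 5058 CPM, with vehicle 4871 and 5592 CPM and with LA 4431 and 5354 CPM. The TCM libraries were the 2 highest of the 8, but those 2 differed from each other by more than the 2 CCM libraries did. The mean was 1.29-fold that of CCM, a log2 FC of 0.37 ± 0.13 that was not called (edgeR adjusted P = 0.074). Without TCM replicate 2 it was 0.48 and was called (adjusted P = 0.0108), and with library totals it was 0.23. Acta1, the skeletal muscle actin, had 1 to 2 counts in the TCM libraries and was at least 5.01-fold lower than with CCM, against the CPM that 3 counts per library give.

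Lmod1, the leiomodin of smooth muscle, had the largest increase of the 10. It measured 18.5 and 16.9 CPM with TCM, and with CCM 8.51 and 9.64 CPM. With vehicle it measured 6.36 and 8.22 CPM and with LA 7.21 and 9.93 CPM. The TCM libraries lay above all 6 others with no overlap. The increase over CCM was 1.95-fold, a log2 FC of 0.97 ± 0.19 (edgeR adjusted P = 0.0039). The call was lost in 1 of 18 alternatives, without CCM replicate 1, at a log2 FC of 0.88 and an adjusted P of 0.0501.

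Myl9 encodes the regulatory light chain of smooth muscle and nonmuscle myosin II. It measured 156 and 135 CPM with TCM, and 101 and 104 CPM with CCM. With vehicle it measured 80.0 and 97.4 CPM and with LA 81.5 and 108 CPM. Both TCM libraries lay above all others. The increase over CCM was 1.42-fold, a log2 FC of 0.51 ± 0.14 (edgeR adjusted P = 0.0254). The call was lost with a log2 FC threshold of 0.68 and with library totals (log2 FC 0.37, adjusted P = 0.0659). It was also lost without CCM replicate 1 (log2 FC 0.49), CCM replicate 2 (0.53) or TCM replicate 1 (0.40).

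Tagln, the actin-bundling protein transgelin, measured 702 and 510 CPM with TCM. With CCM it measured 453 and 498 CPM, with vehicle 363 and 479 CPM and with LA 342 and 451 CPM. TCM replicate 2 was close to CCM replicate 2, and the difference rested mainly on TCM replicate 1. The log2 FC over CCM was 0.35 ± 0.18 (edgeR adjusted P = 0.202), and without TCM replicate 1 it was 0.10. Cnn1, calponin 1, which inhibits the myosin ATPase, measured 23.4 and 20.1 CPM with TCM and 23.6 and 25 CPM with CCM. With vehicle it measured 14.2 and 21.2 CPM and with LA 18.7 and 24.9 CPM. Its log2 FC of −0.16 ± 0.19 for TCM over CCM had a 95% interval from −0.58 to 0.26 and was not called (edgeR adjusted P = 0.593).

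Cald1 encodes caldesmon, in a smooth muscle and a shorter general form that gene counts do not separate. It measured 2053 and 2016 CPM with TCM, against 1698 and 1724 CPM with CCM, 1784 and 1963 CPM with vehicle and 1717 and 1879 CPM with LA. The TCM values were the highest of the 8 but only slightly above vehicle replicate 2. The log2 FC over CCM was 0.25 ± 0.11 (edgeR adjusted P = 0.117). The tropomyosin genes also yield several forms each. Tpm1 measured 1692 and 1479 CPM with TCM, against 1276 and 1389 CPM with CCM, 1450 and 1490 CPM with vehicle and 1261 and 1270 CPM with LA. TCM replicate 2 lay between the vehicle libraries, so TCM and vehicle overlapped.

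Tpm2, the β-tropomyosin, measured 392 and 290 CPM with TCM, against 277 and 288 CPM with CCM, 247 and 267 CPM with vehicle and 230 and 256 CPM with LA. Here too TCM replicate 1 stood apart and replicate 2 lay near the CCM libraries. The log2 FC of TCM over CCM was 0.25 ± 0.11 for Tpm1 and 0.27 ± 0.13 for Tpm2 (edgeR adjusted P = 0.123 and 0.172). Tpm2 was called without TCM replicate 2 (log2 FC 0.47, adjusted P = 0.00195) and measured 0.04 without TCM replicate 1. Des, the intermediate filament protein desmin of muscle, had 9 and 11 counts with TCM, 22 and 10 with CCM, 5 and 9 with vehicle and 14 and 23 with LA. A difference in Des was not detected, with a 95% interval of its log2 FC for TCM over CCM from −1.34 to 0.52.

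**Figure D2:**
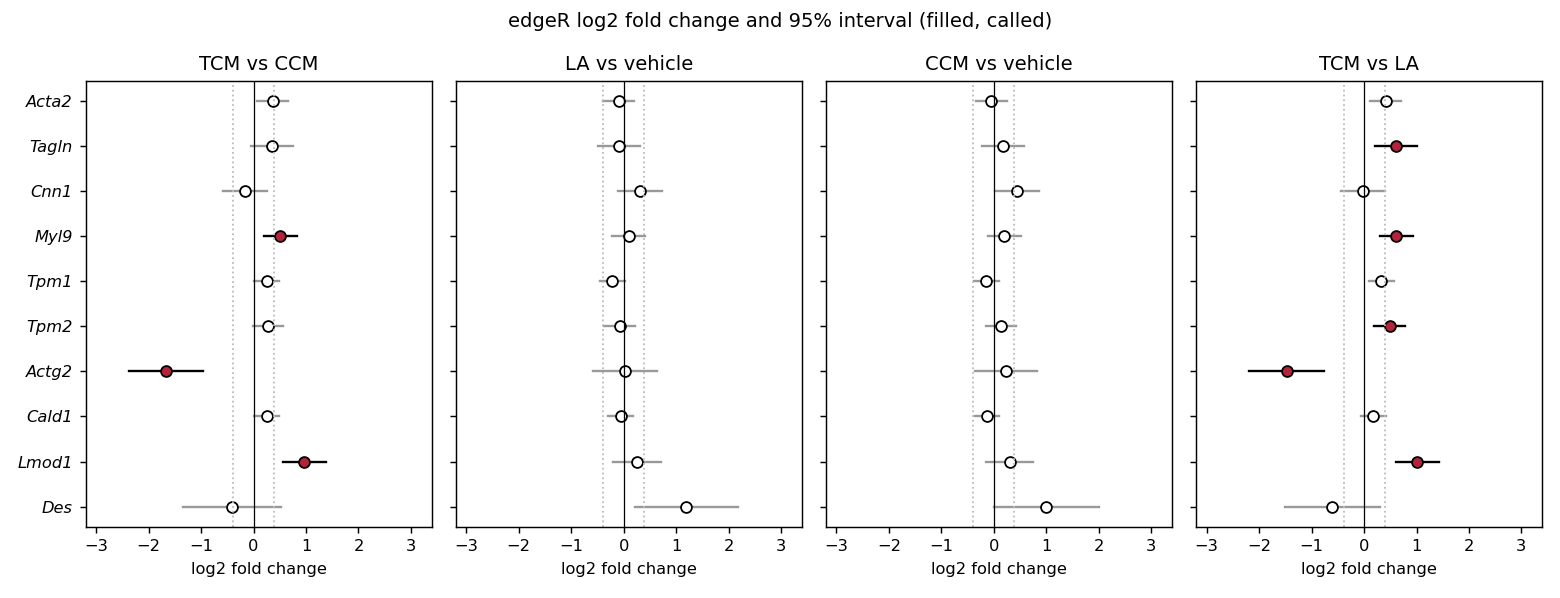
edgeR log2 FC (points) and 95% interval (bars) of the 10 genes in 4 comparisons. Filled points passed the test, and dotted lines mark a log2 FC of 0.39 in either direction. TCM against CCM has 3 filled points, LA against vehicle and CCM against vehicle have none, and TCM against LA has 5.

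LA was compared with vehicle, its own control, to ask whether lactic acid alone moves these genes. None of the 10 was called, against 2.55% of all genes tested in edgeR's quasi-likelihood test. The smallest unadjusted P of the 10 was that of Des (0.0211 by edgeR). DESeq2 called 0 of the 10, and 327 of all genes. Of the 10, 5 were above 0 and 5 below, with a median log2 FC of −0.02. The intervals limit how large an effect could be. For Acta2 the log2 FC was −0.10 with a 95% interval from −0.39 to 0.20, for Tagln −0.09 from −0.49 to 0.32, for Myl9 0.10 from −0.22 to 0.41, and for Lmod1 0.25 from −0.20 to 0.70. Actg2, which fell with TCM, had a log2 FC of 0.03 with an interval from −0.58 to 0.64. Tpm1 was the abundant gene with the lowest value, −0.22 from −0.45 to 0.02, with both LA libraries below both vehicle libraries (edgeR adjusted P = 0.400). Des had a log2 FC of 1.2 on 14 and 23 counts against 5 and 9 (edgeR adjusted P = 0.230).

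CCM and vehicle, the 2 controls, were compared for the same genes. In edgeR's quasi-likelihood test 0 of 10 were called, against 1.3% of all genes tested (158 genes). DESeq2 also called 0 of 10, and 237 of all genes. The smallest unadjusted P of the 10 was that of Cnn1 (0.0396 by edgeR), with a log2 FC of 0.45 and a 95% interval from 0.03 to 0.87. The median log2 FC of the 10 was 0.19. LA and CCM also gave 0 calls of 10 by edgeR, against 0.626% of all genes (76 genes). DESeq2 gave 0 of 10 there as well, and called 147 of all genes. Neither result shows that the media act alike, since the intervals for Actg2, Lmod1 and Cnn1 reach past a log2 FC of 0.39 in at least 1 direction.

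TCM was also set against the other media directly. These comparisons share the TCM libraries with the one against CCM. Against LA, 5 of 10 were called where 16.1% of all genes were. Lmod1 (log2 FC 1.02), Myl9 (0.61), Tagln (0.61) and Tpm2 (0.49) rose with edgeR adjusted P values of 0.0035, 0.0126, 0.0405 and 0.0281, and Actg2 fell (−1.47, adjusted P = 0.0101). The Tagln call was lost without TCM replicate 1 (log2 FC 0.36), LA replicate 1 (0.43) or either CCM replicate (0.61 each). The Tpm2 call was lost without TCM replicate 1 (0.25), LA replicate 1 (0.41) or LA replicate 2 (0.57), and both calls were lost with library totals. Myl9 was not called without TCM replicate 1 (0.50) or LA replicate 1 (0.43), nor Actg2 without LA replicate 2 (−0.96). Without TCM replicate 2 the log2 FC was 0.52 for Acta2 and 0.42 for Tpm1. With all libraries these were 0.42 and 0.33, and neither was called.

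Against vehicle, 3 of 10 were called where 17.5% of all genes were. They were Lmod1 (log2 FC 1.27, edgeR adjusted P = 0.0011), Myl9 (0.71, adjusted P = 0.0057) and Actg2 (−1.44, adjusted P = 0.0111). Myl9 was not called without vehicle replicate 1 (0.58), and Actg2 was not called without vehicle replicate 2 (−1.14) or TCM replicate 2 (−1.14). Without TCM replicate 2 the log2 FC was 0.43 for Acta2, 0.74 for Tagln and 0.61 for Tpm2. With all libraries these were 0.32, 0.52 and 0.41, and none of them was called. Lmod1, Myl9 and Actg2 were each called in all 3 comparisons with TCM.

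Whether the TCM effect differed from the LA effect was tested as the difference of the 2 log2 FC values, each against its own control. Actg2 alone of the 10 was called, against 10.4% of all genes. The difference was −1.70 ± 0.43 (edgeR adjusted P = 0.0269). It was not called without vehicle replicate 1 (−1.47), CCM replicate 1 (−1.60), CCM replicate 2 (−1.79), LA replicate 2 (−1.19) or TCM replicate 2 (−1.41). For Lmod1 the difference was 0.71 ± 0.28 (adjusted P = 0.137) and for Myl9 0.41 ± 0.20 (adjusted P = 0.237), so their increase with TCM was not shown to differ from the LA effect. Without TCM replicate 2 the difference was 0.57 for Acta2, 0.56 for Tpm1 and 0.55 for Tpm2. With all libraries these were 0.47, 0.47 and 0.35, and none of them was called.

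Ratios of counts within a library need no scaling between libraries. Acta2 per count of Actg2 was 1590 and 2213 with TCM. It was 414 and 473 with CCM, 615 and 488 with vehicle and 636 and 434 with LA, so both TCM ratios exceeded the 6 others. Acta2 per count of Lmod1 was 380 and 357 with TCM and 525 to 766 in the other 6 libraries, the lowest of these with CCM. Acta2 per count of Myl9 was 45.1 and 44.8 with TCM, near the 48.8 and 50.2 of CCM, and up to 60.9 with vehicle. Lmod1 and Actg2 therefore moved in opposite directions relative to the main actin transcript. These ratios show unequal change and not which transcript moved.

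**Figure D3:**
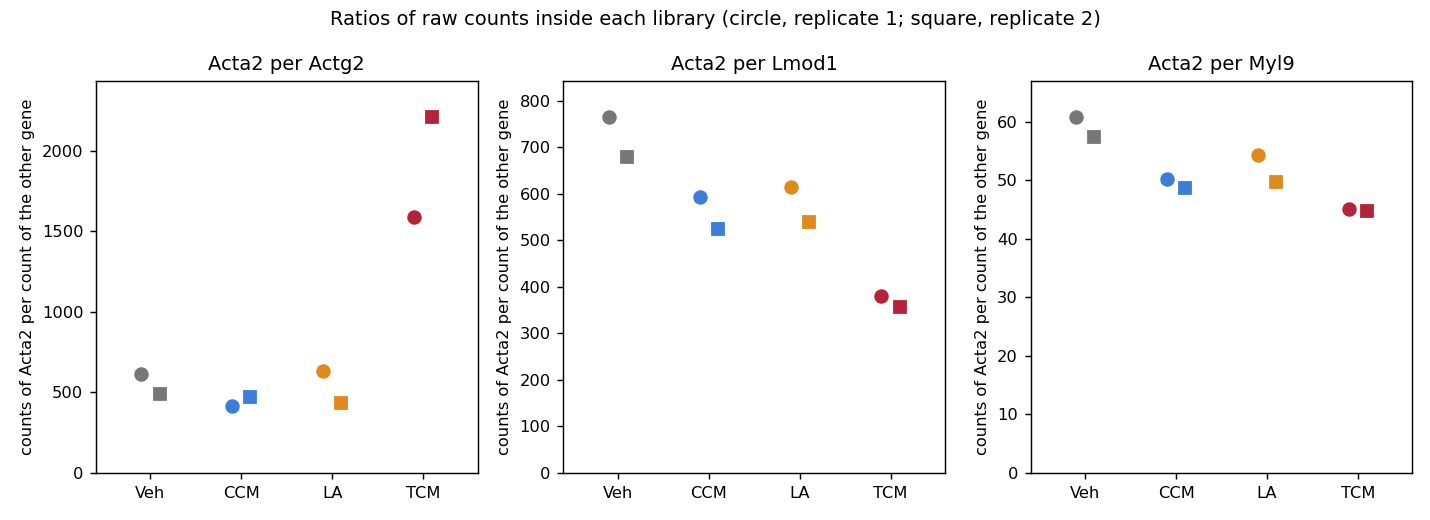
Raw counts of Acta2 divided by those of Actg2, Lmod1 or Myl9 within each library (linear axes from 0, Veh is vehicle, circles replicate 1 and squares replicate 2). The TCM ratios to Actg2, 1590 and 2213, lie above the highest other value of 636.

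The 2 libraries of a condition differed in the same direction for most of the 10 genes. Replicate 2 was higher for 10 of 10 with vehicle, 8 of 10 with CCM and 9 of 10 with LA. With TCM replicate 1 was higher for 9 of 10. Over all genes tested each replicate was higher for 48.5% to 51.5%. The median log2 difference, replicate 2 minus replicate 1, was 0.33 with vehicle, 0.05 with CCM, 0.34 with LA and −0.22 with TCM. Acta2, Tagln, Myl9 and Tpm2 thus shared a spread between cultures, so the 10 genes are not 10 independent observations of a condition. The source of this shared spread was not tested.

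**Figure D4:**
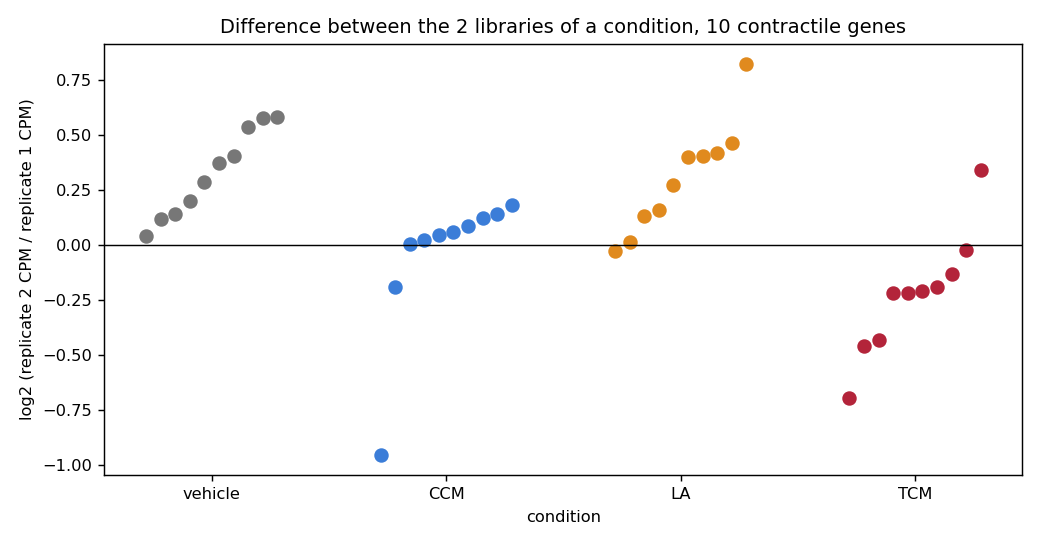
Log2 ratio of replicate 2 CPM to replicate 1 CPM for each of the 10 genes (points, sorted within a condition). All points for vehicle lie above 0, and 9 of 10 for TCM lie below it.

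By the measure of likeness used, Pearson's r of log2 CPM over the 8 libraries, the genes outside the 10 with a pattern most like that of Acta2 included Cst3 (0.972), Ppp3r1 (0.971), Epdr1 (0.971) and Card19 (0.966). Of the other members, Myl9 (0.928), Tagln (0.927), Tpm2 (0.894), Cald1 (0.887) and Lmod1 (0.885) followed Acta2 closely and Tpm1 less so (0.818). Cnn1 had 0.350, Des −0.211 and Actg2 −0.525. The points share 4 conditions and the spread just described, so these values only describe the libraries. None of these 4 outside genes encodes a part of the contractile filament.

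Genes around the contractile set were read from lists by role. Of 18 other contractile genes 15 were tested, and with TCM over CCM 4 rose and 3 fell, where 19.1% of all genes were called, with a median log2 FC of −0.16 against 0.26 for the 10. Nexn, the actin-binding nexilin, went from 44.2 and 52.7 CPM with CCM to 100.2 and 86.9 CPM with TCM (log2 FC 0.95, edgeR adjusted P = 0.00025). Tpm4 (0.58), a tropomyosin of nonmuscle cells, and Ldb3 (0.71), a Z-disc protein, also rose, Ldb3 losing its call without CCM replicate 1 (0.74) or CCM replicate 2 (0.68). Acta1 was among the 3 that fell. With LA over vehicle 0 of 15 were called, where 2.55% of all genes were, and the values nearest to the threshold were Smtn, encoding smoothelin, at 0.36 (adjusted P = 0.108) and Ldb3 at 0.53 (adjusted P = 0.120). Ldb3 was called there without TCM replicate 1 or without TCM replicate 2 (0.53 each). The full list gave 3 calls for TCM over CCM without CCM replicate 1 and 4 without CCM replicate 2, where calls over all genes went from 2314 to 1195 and 1284.

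Of 14 nonmuscle actomyosin genes tested, 4 rose with TCM over CCM and 0 fell, against the same 19.1% of all genes called in either direction. Zyx, encoding the focal adhesion protein zyxin, had 2243 and 2521 CPM with TCM against 904 and 863 CPM with CCM, a log2 FC of 1.43 ± 0.13 (edgeR adjusted P = 3.5e-05). Actb (0.54), the general β-actin, rose too, but not without CCM replicate 1 (0.48). The light chain genes Myl12a (0.57) and Myl6 (0.56) rose, but neither call held with library totals (0.43 and 0.42), without CCM replicate 1 (0.51 and 0.48), without CCM replicate 2 (0.62 and 0.64) or without TCM replicate 1 (0.27 and 0.23), and that of Myl6 also not without vehicle replicate 1 (0.56). With LA over vehicle 0 of 14 were called by edgeR, where 2.55% of all genes were. Actn4 had the smallest adjusted P there (log2 FC −0.21, adjusted P = 0.368).

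The list of regulators held SRF and its cofactors with small GTPases and kinases that control myosin, and 14 of 16 were tested. Fhl2 (log2 FC 0.54), a LIM protein that binds SRF, rose with TCM over CCM. Rock2 (0.49), a kinase that raises myosin phosphorylation, rose too, and 1 gene fell. These were 3 calls of 14, where 19.1% of all genes were called. The Fhl2 call was lost without CCM replicate 2 (0.49), and that of Rock2 with library totals (0.35) and without CCM replicate 1 (0.53), CCM replicate 2 (0.44) or TCM replicate 2 (0.33). Fhl1, a related LIM protein, fell in both treatments. It went from 218 and 222 CPM with CCM to 149 and 153 CPM with TCM (log2 FC −0.54, edgeR adjusted P = 0.0012), and from 243 and 242 CPM with vehicle to 145 and 153 CPM with LA (−0.70, adjusted P = 0.0020). Fhl1 was the single gene of this list called with LA over vehicle, where 2.55% of all genes were called. Myocd, the muscle cofactor myocardin, was at or under the floor in all 8 libraries.

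Of 12 other myofibroblast genes tested, 4 rose and 6 fell with TCM over CCM, where 19.1% of all genes were called. Itga11 (log2 FC 1.07), a collagen-binding integrin, measured 163 and 216 CPM with TCM against 103 and 76.7 CPM with CCM. Thbs1 (0.75), encoding thrombospondin 1, measured 8774 and 10805 CPM with TCM against 5759 and 5871 CPM with CCM. With vehicle Thbs1 measured 7609 and 8216 CPM and with LA 9595 and 8966 CPM. Its CCM libraries were thus the lowest, and TCM replicate 1 lay below both LA libraries. Tgfbr2, a receptor for TGFβ, fell by 0.77 on the log2 scale from 180 and 156 CPM to 86.9 and 110 CPM. With LA over vehicle, Tgfbr2 fell by 0.83 on the log2 scale (edgeR adjusted P = 0.0083), from 214 and 247 CPM to 126 and 133 CPM. That call was lost without vehicle replicate 2 (−0.72), LA replicate 1 (−0.80) or LA replicate 2 (−0.87). No other gene of the list was called with LA, where 2.55% of all genes were. The list gave 4 calls for TCM over CCM without CCM replicate 1 and 6 without CCM replicate 2. Of 4 other intermediate filament genes, Nes (−1.05), Synm (−0.65) and Lmna (−0.41) fell with TCM over CCM, where 19.1% of all genes were called. Vim, the vimentin gene, measured 0.24 (edgeR adjusted P = 0.138). Synm lost its call in DESeq2 (log2 FC −0.64, adjusted P = 0.0873). With only the libraries compared, Synm (−0.64) and Lmna (−0.40) lost theirs (edgeR adjusted P = 0.0695 and 0.0630). Without CCM replicate 1 or without CCM replicate 2, 1 of these 4 was called, and 2 of 4 were called when either TCM library was left out.

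**Figure D5:**
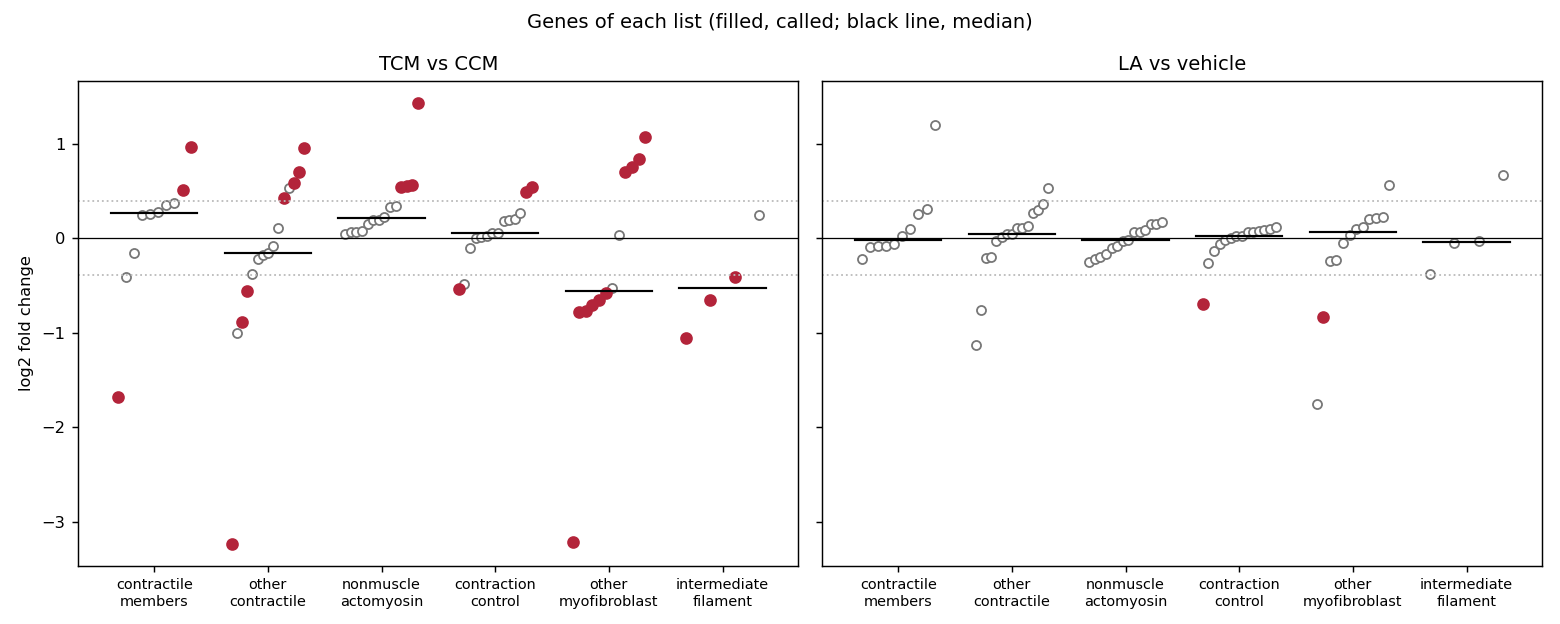
edgeR log2 FC of each tested gene of the contractile set and 5 further lists, for TCM over CCM and LA over vehicle. Filled points passed the test, black lines are medians and dotted lines mark 0.39 in either direction. With TCM both directions occur in 4 of the 6 lists, and with LA 1 gene in each of 2 lists is filled. The points lowest with TCM are fitted values of genes at the floor.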

How the data were processed

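Total RNA of the 8 cultures was used for directional poly(A) libraries. Per the labels, the authors used STAR 2.7.0a, featureCounts (Subread 2.0.1) and DESeq2 1.32.0 with GRCm38. The deposited values are raw counts, whole numbers for each gene. The other deposited table, called normalized, held the same raw counts for 12137 genes (100% equal) and was read as counts. No column was left unused.

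The counts were fitted in R 4.3.3 with edgeR 4.0.16 (TMM, glmQLFit robust, glmQLFTest) on all 8 libraries with a mean per condition. The log2 FC threshold of 0.39 and the filter follow the study's methods. An exact permutation test of 2 against 2 libraries cannot go below 0.333 and was not used. Positions, lengths and shared windows came from GENCODE M21 (GRCm38), which is not the annotation of the authors. The fit was tested on simulated data. Alternatives included DESeq2 1.42.0, other scalings and filters, a block and leaving out each library. The 10 genes and the lists were chosen with earlier results of these data known. All 10 are named, and of each further list at most 4 genes with the smallest adjusted P value for TCM over CCM or for LA over vehicle, besides genes most like Acta2, and 2 of the genes so chosen are not reported here. Replicate numbers were not used as pairs, since the correlations of deviations of same-numbered libraries ran from −0.242 to 0.353.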

Additional observations from a re-analysis of the deposited data

Results flagged for a closer look

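The difference between the TCM effect over CCM and the LA effect over vehicle was itself tested with edgeR, and it passed for 8 of the genes named here. Of the 10 contractile genes this was Actg2, at −1.70 on the log2 scale (adjusted P = 0.0269). Among other contractile genes it was Nexn, at 0.68 (adjusted P = 0.0262), Smtn, at −0.52 (adjusted P = 0.0485), and Tagln2, a relative of transgelin, at −0.68 (adjusted P = 0.010). Zyx had 1.28 (adjusted P = 0.00083), with log2 FC values of 1.43 for TCM and 0.15 for LA. Among myofibroblast genes, Itga11 had 0.87 (adjusted P = 0.0305) and Postn, encoding periostin, had −1.27 (adjusted P = 0.0123). Nes, encoding the intermediate filament protein nestin, had −1.72 (adjusted P = 0.00073), with −1.05 for TCM and 0.67 for LA, the latter not called in the main test (adjusted P = 0.0569) but called in 6 alternatives, among them the replicate block (adjusted P = 0.0455) and the fits without TCM replicate 1 (0.0161) or TCM replicate 2 (0.0160). Leaving out single libraries or changing 1 setting did not end the call for Zyx or Nes in any alternative run, and at least 3 alternatives ended it for each of the other 6. All 6 calls were lost without vehicle replicate 1, at −1.47 for Actg2, 0.64 for Nexn, −0.54 for Smtn, −0.63 for Tagln2, 0.92 for Itga11 and −1.09 for Postn.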

How the results depend on the processing

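Over 7 comparisons the 10 genes gave 70 results and 1243 alternative values. Of these, 1190 kept the call, 31 lost it, 22 gained it and 0 called values changed sign. Another 24 differed in sign where neither value was called. For TCM against LA the count of called members was 5, and it was 3 with library totals, 3 with only the libraries compared and 2 with a log2 FC threshold of 0.68. At 0.68 every call with a smaller absolute log2 FC was lost, among them Tpm4, Actb, Fhl1, Fhl2 and Rock2 with TCM over CCM. For TCM against vehicle the count was 3, and it was 5 with DESeq2 and 5 without the low-count filter. For the difference of the TCM and LA effects the count was 1, and it was 2 with DESeq2 and 3 without the filter. The cause was not tested. For LA against vehicle, CCM against vehicle and LA against CCM the count was 0 under every other setting. Leaving out 1 library at a time ended some calls of members and added others. The median log2 FC of the 10 then ran from 0.13 to 0.41 for TCM against CCM and from 0.24 to 0.47 for TCM against LA. It ran from 0.19 to 0.54 for TCM against vehicle and from 0.24 to 0.53 for the difference of effects. A lone library was assumed to vary like the others.

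With the replicate number as a block, members called for TCM against CCM were 3, and the block changed no other count of members called. After seeing the data, a block with the CCM numbers crossed was added, and it gave 2 for the difference of effects (Tpm1 added, log2 FC 0.47, adjusted P = 0.0242), 6 for TCM against LA (Acta2 added, log2 FC 0.42, adjusted P = 0.0186) and 4 for TCM against vehicle (Tpm2 added, 0.40, adjusted P = 0.0278). Calls over all genes were 2314 for TCM against CCM and 1331 to 2696 under other settings, and 310 for LA against vehicle and 176 to 656. Leaving out 1 library gave 1195 to 2864 for TCM against CCM, 57 to 617 for LA against vehicle, 0 to 497 for CCM against vehicle (158 with all libraries) and 1 to 274 for LA against CCM (76), so the shares of all genes called move with single libraries too. Without TMM factors the share of calls that were higher was 30.4% rather than 51.8% for TCM against LA, 30.5% rather than 49.1% for TCM against vehicle and 23.2% rather than 42.6% for the difference of effects. Depth limited Des most, with at most 23 counts.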
